A study of Mus musculus with 4 samples.

Results

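The γ and δ chains of the γδ T cell receptor are encoded at 2 loci of the mouse genome, and 16 of the 46799 rows of the expression tables carry the name of a γ or δ gene segment or locus. They were chosen by name alone: any row with a gene name that begins with TCRG, TRGC, TRGV, TRGJ, TCRD, TRDC, TRDV, TRDD or TRDJ. Of the 16 rows, 7 belonged to the γ locus on chromosome 13 and 9 to the δ segments on chromosome 14.

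The cells were γδ T cells of epididymal adipose tissue, sorted from male C57Bl/6 mice aged 16 to 22 weeks. All mice, of both groups, carried the PLZF-GFP reporter, which marks cells that express the transcription factor PLZF. Cells without the reporter gave 2 PLZF- libraries (columns A6 and B6), and cells with it gave 2 PLZF+ libraries (A7 and B7). The names of all these columns also carry the code SFD, which both groups share and which the column names do not spell out. Each library pooled 10 mice and was made with the SMART-seq2 protocol, in which cDNA is amplified from small amounts of RNA; the antibodies used to gate the cells, and whether pools shared mice between the groups, were not given in the labels.

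A γδ receptor is one γ chain paired with one δ chain. Each γ gene is joined during development from a variable (V) and a joining (J) segment, each δ gene from a V, diversity (D) and J segment, and both are spliced to a constant (C) segment. The δ segments lie inside the α chain locus, so several V segments can serve either chain. The receptor reaches the surface only with the CD3 chains, which carry its signal. γδ T cells of fat that make IL-17A commonly use the V6 γ segment, which is known as background and was not measured as a rearrangement here.

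Where the segments differ matters for which reads can tell them apart. GENCODE M21 annotates 26 γ and δ segments, of which 12 are named by a row (6 γ and 6 δ). The γ constant segments other than Tcrg-C4 are near copies. In their coding sequence Tcrg-C1 was 97.4% identical to Tcrg-C2 and 96.8% identical to Tcrg-C3, but 78.7% identical to Tcrg-C4. The 90 bases at the start of each coding sequence are shown 5′ to 3′, with capitals where a segment differs from Tcrg-C1.
Tcrg-C1: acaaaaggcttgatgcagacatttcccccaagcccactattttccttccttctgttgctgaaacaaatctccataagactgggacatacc
Tcrg-C2: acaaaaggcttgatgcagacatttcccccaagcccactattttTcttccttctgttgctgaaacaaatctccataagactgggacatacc
Tcrg-C3: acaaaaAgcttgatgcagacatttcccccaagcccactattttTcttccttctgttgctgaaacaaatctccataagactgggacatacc
Tcrg-C4: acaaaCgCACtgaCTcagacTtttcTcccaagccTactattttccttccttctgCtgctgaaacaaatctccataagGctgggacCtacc
Over this stretch Tcrg-C2 differed from Tcrg-C1 at 1 base, Tcrg-C3 at 2 and Tcrg-C4 at 12. Tcrg-C1 shared no run of 50 bases with Tcrg-C4, and shared 14.4% of its 50-base runs with Tcrg-C3. These sequences are read from the GENCODE M21 transcripts on GRCm38, the assembly of mm10, as are those that follow.

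Some variable segments were further apart, and others were near copies. Tcrg-V5 (chr13:19192278-19192725, + strand) and Tcrg-V6 (chr13:19190356-19190929, + strand), whose names stand together on 1 row, were 65.8% identical and shared no run of 50 bases. Their last 90 bases are shown with those of Tcrg-V1 (chr13:19339989-19340454, + strand) and of Trdv2-2 (chr14:53960944-53961602, + strand), the segments with rows of their own described further on. Capitals mark the codon of the conserved cysteine at the end of the V segment.
Tcrg-V5: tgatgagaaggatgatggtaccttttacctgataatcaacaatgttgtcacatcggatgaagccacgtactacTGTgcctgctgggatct
Tcrg-V6: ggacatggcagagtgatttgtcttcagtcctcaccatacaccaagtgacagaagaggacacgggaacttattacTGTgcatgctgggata
Tcrg-V1: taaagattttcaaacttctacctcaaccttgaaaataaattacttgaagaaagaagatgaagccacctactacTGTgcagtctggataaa
Trdv2-2: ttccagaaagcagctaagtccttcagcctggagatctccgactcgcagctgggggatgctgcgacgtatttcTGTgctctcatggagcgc
Tcrg-V1 was 95.7% identical to Tcrg-V3, which has a row too, and 95.7% identical to Trgv2, which no row names. Trdv2-2 was 93.3% identical to Trdv2-1, whose row was at 0 in all 4 libraries. The δ diversity segment Trdd2 (chr14:54122226-54122241, + strand), which names the main δ row, is 16 bases long.
Trdd2: atcggagggatacgag

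The coordinates of the rows did not separate the segments. Of the 16 rows, 5 shared the interval chr13:19162038-19337988 on mm10, which spans the γ cluster from before Tcrg-V7 to after Trgv2. All 9 δ rows shared chr14:52744249-54224168, the interval of the whole α and δ locus, with 101 other rows. Only the TCRG-V1 row (chr13:19339934-19340453) and the TCRG-C row (chr13:19342148-19352763) had an interval of their own. The TCRG-C row covered the annotated Trgj4 and Tcrg-C4 and no other constant segment. Rows are therefore given under the names deposited with them, and no value is assigned to 1 segment of a row that names several.

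γ and δ receptor transcripts were both more abundant in PLZF+ cells. The 2 main γ rows, added up, were 3.35-fold higher and the main δ row 3.46-fold higher. Of the 16 rows, 5 had a mean normalized count of at least 10 and were tested: 3 were higher in PLZF+ cells, 0 were lower and 2 did not pass (limma, Benjamini-Hochberg adjusted over 9501 rows, threshold 0.05). Of all 9501 rows tested, 2.55% were higher and 4.98% lower. By an unadjusted p under 0.05, 4 of the 5 were higher and 0 lower, where 8.41% of all tested rows were higher and 12.1% lower. Voom, run as another tool, also called 3 higher and 0 lower. The other 11 rows were under the minimum, 5 of them at 0 in every library. In bulk libraries fewer cells of a type and less RNA per cell cannot be told apart.

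**Figure D1:**
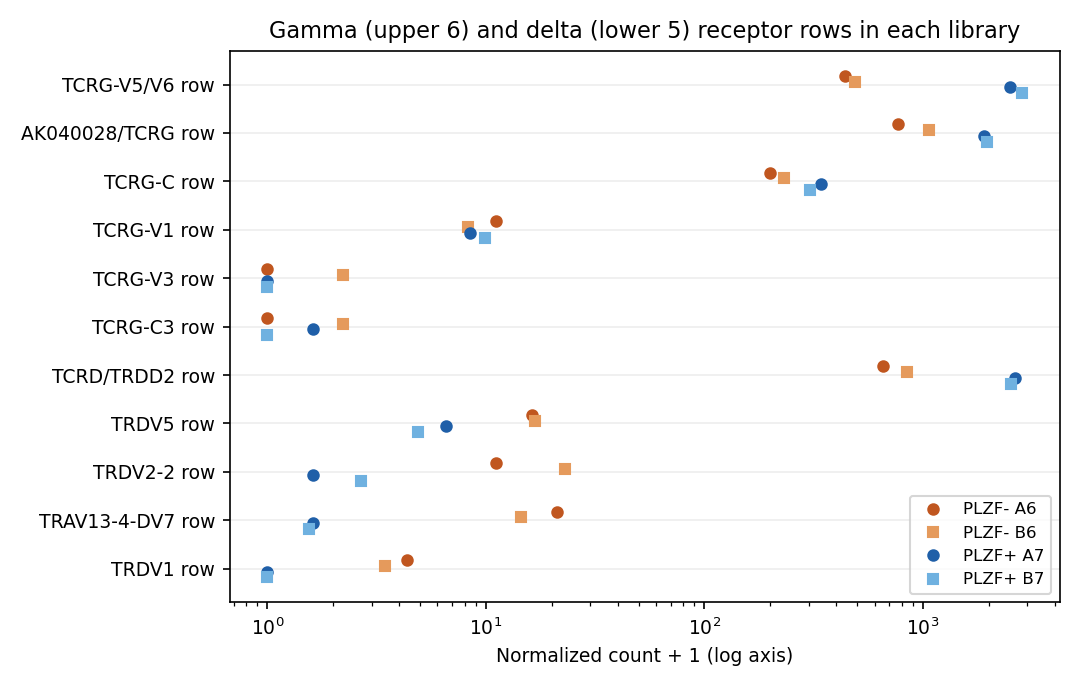
Normalized count plus 1 (log axis) of the 11 γ and δ receptor rows with a value in any library, 1 point per library, with PLZF- libraries in orange and PLZF+ libraries in blue. The 3 most abundant rows, TCRG-V5/V6, AK040028/TCRG and TCRD/TRDD2, lie higher in both PLZF+ libraries, while TRDV5, TRDV2-2 and TRAV13-4-DV7 lie lower.

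The row named TCRG, TCRG-C3, TCRG-V5 and TCRG-V6, called the TCRG-V5/V6 row here, had the largest log2 fold change of the 5 tested receptor rows. Among the PLZF- libraries it had 440 (A6) and 488 (B6) normalized counts, and among the PLZF+ libraries 2511 (A7) and 2835 (B7). Both PLZF+ libraries lay above both PLZF- libraries. A separation in this direction, of any size, was found in 24.0% of all tested rows. The means were 2673 ± 230 in PLZF+ and 464 ± 34.3 in PLZF- cells (SD, n = 2 each), a log2 fold change of 2.52 ± 0.18 (SE, limma adjusted p = 9.9e-06), or 5.75-fold. Per length, on the FPKM scale, it ranked 29th and 21st among all rows in A7 and B7, with 1297 and 1556 FPKM. In A6 and B6 it ranked 263rd and 200th, with 216 and 289 FPKM.

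The second abundant γ row carries the names AK040028 and TCRG and no segment. It had 768 and 1067 normalized counts in A6 and B6 and 1897 and 1965 in A7 and B7. The subsets did not overlap, but the step was smaller than for the TCRG-V5/V6 row. The log2 fold change was 1.09 ± 0.19 (SE, limma adjusted p = 0.0035). Its call was lost with the FPKM table (adjusted p = 0.12), without PLZF+ library A7 (0.12), without PLZF+ library B7 (0.16) and without the trend and robust moderation (0.26).

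These 2 rows share their interval, and their values are tied. Divided by the value of 1 read in their library, the other receptor rows lay within 0.0019 of a whole read. Each of the 2 γ rows alone lay 0.0890 to 0.449 reads away from a whole number. Their sum came to 716 and 1275 reads in A6 and B6 and to 7117 and 8603 in A7 and B7, never more than 0.0190 from a whole read. The deposited tables thus give whole reads for the pair and fractions for its members, and how each read was divided was not tested.

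The division itself differed between the subsets. The TCRG-V5/V6 row held 36.4% and 31.4% of the pair's normalized counts in A6 and B6, and 57.0% and 59.1% in A7 and B7. The ranges of the subsets lay apart, and the share within a library does not depend on scaling between libraries. On the FPKM scale the shares were 43.3% and 43.2% against 70.8% and 74.5%. With 2 libraries a subset, an exact permutation test could not reach 0.05, so no p is given.

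Added up, the pair had 1208 and 1555 normalized counts in A6 and B6 and 4408 and 4801 in A7 and B7. This sum, an alternative chosen after the values were seen, does not depend on how reads were divided between its rows. Means of 4604 ± 278 in PLZF+ and 1381 ± 245 in PLZF- cells (SD, n = 2 each) gave a log2 fold change of 1.75 ± 0.17 (SE, limma adjusted p = 4.2e-05, 95% interval 1.38 to 2.11), or 3.35-fold. The sum lost its call without the trend and robust moderation (adjusted p = 0.12) and in no other alternative run.

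**Figure D2:**
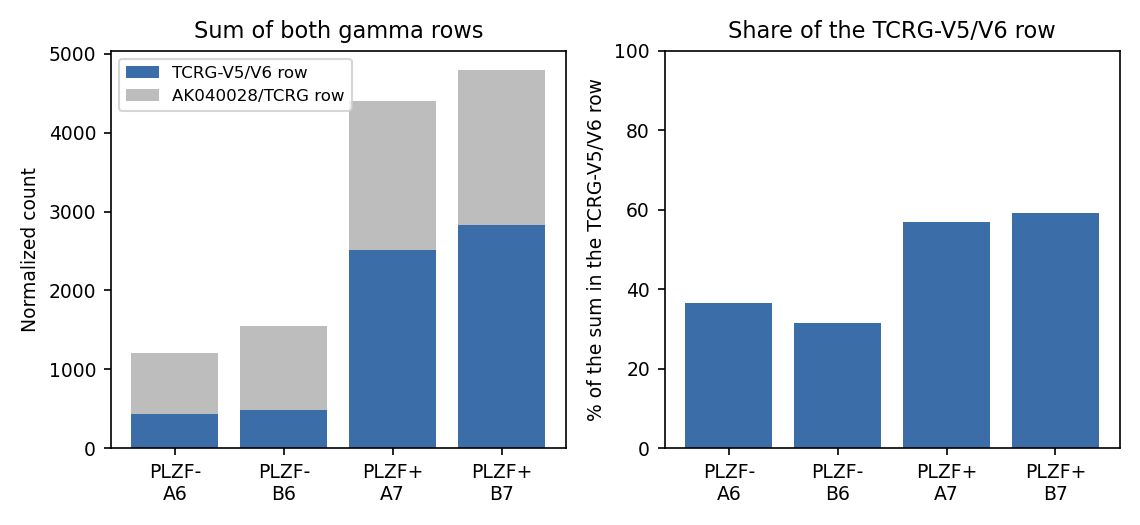
Left, normalized counts of the TCRG-V5/V6 row (blue) and the AK040028/TCRG row (grey) stacked by library; right, the percent of that sum in the TCRG-V5/V6 row. The sum is 1208 and 1555 in the PLZF- and 4408 and 4801 in the PLZF+ libraries, and the TCRG-V5/V6 row holds 36.4% and 31.4% of it in the PLZF- and 57.0% and 59.1% in the PLZF+ libraries.

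The TCRG-C row, over the γ constant segment Tcrg-C4 that stands apart in sequence, differed less. It had 197 and 231 normalized counts in A6 and B6 and 341 and 303 in A7 and B7. Both PLZF+ values were above both PLZF- values, but the difference did not pass the test. The log2 fold change was 0.59 ± 0.25 (SE, limma adjusted p = 0.21, 95% interval 0.04 to 1.14), and none of the 15 alternatives run called it (adjusted p 0.14 to 0.72). An interval that reaches 1.14 does not show that the row is alike in both subsets.

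As a share of the γ reads, the TCRG-C row was the larger in PLZF- cells. It took 117 of 839 γ reads in A6 (13.9%, exact 95% interval 11.7% to 16.5%) and 189 of 1472 in B6 (12.8%, 11.2% to 14.7%). In PLZF+ cells it took 550 of 7680 in A7 (7.16%, 6.59% to 7.76%) and 543 of 9162 in B7 (5.93%, 5.45% to 6.43%). The intervals of the subsets did not overlap; they cover counting error only, since PCR copies are not independent molecules.

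The other γ rows were at a few reads. The TCRG-V1 row had 10.1 and 7.32 normalized counts in A6 and B6 and 7.43 and 8.93 in A7 and B7, from 6, 6, 12 and 16 reads. The subsets overlapped, and the ratio of PLZF- to PLZF+ cells was 1.03 (exact 95% interval 0.479 to 2.10, counting error only), which leaves a difference of about that width not detectable at this depth. The TCRG-V3 row had 1 read, in B6. The row named TCRG-C3 alone had 1 read in B6 and 1 in A7, and the TRGJ3 row was at 0 throughout.

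δ chain transcripts were higher in PLZF+ cells as well. Most δ reads fell in the row named TCRD and TRDD2, which had 656 and 844 normalized counts in A6 and B6 and 2630 and 2525 in A7 and B7. The PLZF+ libraries were close to each other and well above both PLZF- libraries. The means were 2577 ± 74.4 in PLZF+ and 750 ± 133 in PLZF- cells (SD, n = 2 each), a log2 fold change of 1.79 ± 0.18 (SE, limma adjusted p = 5.9e-05), or 3.46-fold. On the FPKM scale the levels were 261 and 389 in A6 and B6 and 1103 and 1103 in A7 and B7. Without the trend and robust moderation the adjusted p was 0.11.

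The row that names the δ variable segment Trdv5 pointed the other way without passing. The TRDV5 row had 15.2 and 15.9 normalized counts in A6 and B6 and 5.57 and 3.91 in A7 and B7, from 9, 13, 9 and 7 reads. The subsets did not overlap, as for 27.3% of all tested rows in this direction. The log2 fold change was -1.54 ± 1.10 (SE, limma adjusted p = 0.48), and with the FPKM table the row passed (adjusted p = 0.043). Trdv5 shares 207 bases with the δ constant segment Trdc on the opposite strand. Without a known strand setting, reads inside those 207 bases cannot be assigned to either segment. The rest of Trdv5 lies outside Trdc, and where the reads of the row fell was not tested.

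Of the δ rows under the minimum, 3 had reads chiefly in PLZF- cells. The TRDV2-2 row had 10.1 and 22.0 normalized counts in A6 and B6 and 0.619 and 1.67 in A7 and B7, from 6, 18, 1 and 3 reads. The row that holds TRAV13-4-DV7, a variable segment of the α and δ chains, had 20.2 and 13.4 against 0.619 and 0.558, from 12, 11, 1 and 1 reads. Both were at 1 to 3 reads in the deeper PLZF+ libraries. The ratio of PLZF- to PLZF+ cells was 14.5 for TRDV2-2 (exact 95% interval 4.97 to 57.4) and 27.7 for TRAV13-4-DV7 (6.85 to 243). Neither passed when rows were tested without a minimum (limma adjusted p = 0.23 and 0.15). The TRDV1 row had 2 reads in each PLZF- library and 0 in each PLZF+ library, at or under the floor of 3 reads, so no fold is given. Both rows named TCR, TCRD and TRAV14-2, and the TRDV2-1 and TRDD1 rows, were at 0 in all 4 libraries.

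Together, the δ rows other than TCRD/TRDD2 made up 29 of 418 δ reads in A6 (6.94%, exact 95% interval 4.70% to 9.81%) and 44 of 736 in B6 (5.98%, 4.38% to 7.94%). In PLZF+ cells they made up 11 of 4257 in A7 (0.258%, 0.129% to 0.462%) and 11 of 4535 in B7 (0.243%, 0.121% to 0.434%). These rows were a larger part of the δ reads in both PLZF- libraries than in either PLZF+ library. They include the row of TRAV13-4-DV7, which carries names of α segments too, and the TRDV5 row, so the share is one of rows and not of δ variable segments.

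**Figure D3:**
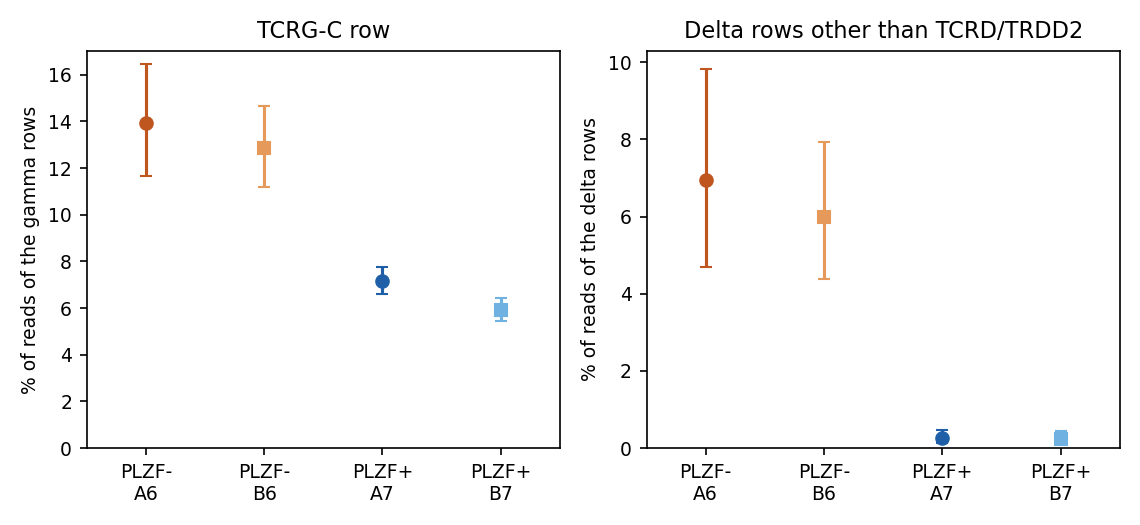
Percent of γ reads in the TCRG-C row (left) and of δ reads in rows other than TCRD/TRDD2 (right) in each library, with exact 95% intervals for counting error. Both shares are higher in the PLZF- libraries, at 12.8% to 13.9% against 5.93% to 7.16% on the left and 5.98% to 6.94% against 0.243% to 0.258% on the right.

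The balance of the chains was nearly the same in the 4 libraries. The γ rows summed to 2.01 and 2.0 times the δ rows in A6 and B6 and to 1.80 and 2.02 times in A7 and B7, and the subsets overlapped. The 16 rows together made up 0.169% and 0.225% of the reads without rRNA precursor in A6 and B6, and 0.650% and 0.673% in A7 and B7.

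The genes of the CD3 chains were higher in PLZF+ cells too. All 4 passed, where 2.55% of all tested rows were higher. Their median log2 fold change was 1.36 against -0.03 over all tested rows. Cd3g and Cd247, which encodes the ζ chain, differed by 1.55 ± 0.27 and 1.5 ± 0.23 (limma adjusted p = 0.0035 and 0.0013). Cd3e and Cd3d differed by 1.22 ± 0.30 and 1.08 ± 0.27 (adjusted p = 0.027 and 0.030). In each of the 4 genes both PLZF+ libraries lay above both PLZF- libraries. With any 1 library left out, the log2 fold change of each gene stayed positive, the smallest being 0.72 (Cd3e without A6). Such a fit has 1 library in a subset, so a lost call cannot show that the difference rests on the library left out. Of the 4 genes, 2 passed with the FPKM table or without a minimum. The summed CD3 level was 761 and 1197 normalized counts in A6 and B6 and 2371 and 2592 in A7 and B7.

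Set against CD3, the subsets lay closer together. The γ rows were 1.86 and 1.5 times the CD3 sum in A6 and B6 and 2.01 and 1.97 times in A7 and B7. The δ rows were 0.926 and 0.750 times the CD3 sum in A6 and B6 and 1.11 and 0.976 times in A7 and B7. Both ratios were higher in both PLZF+ libraries, and they do not depend on scaling between libraries. The step between the subsets was small, from 1.86 (A6) to 1.97 (B7) for γ and from 0.926 (A6) to 0.976 (B7) for δ. In both cases the PLZF- libraries differed more from each other, and the ratios were not tested.

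**Figure D4:**
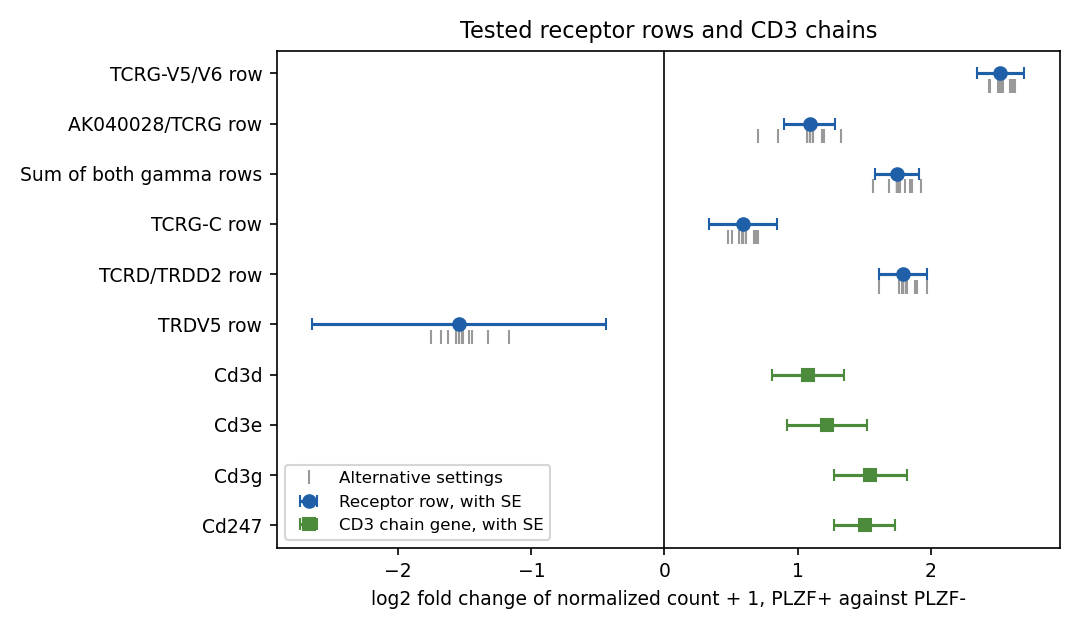
Log2 fold change of normalized count plus 1, PLZF+ against PLZF-, for the tested receptor rows and the sum of the 2 γ rows (circles) and the 4 CD3 chain genes (squares), with bars of 1 SE and grey ticks for the alternative settings of the receptor rows. The TCRG-V5/V6 row lies at 2.52, the sum of both γ rows at 1.75, TCRD/TRDD2 at 1.79 and the CD3 genes between 1.08 and 1.55.

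Several lists of genes used as markers of other cells differed between the subsets. Which cells these transcripts came from was not tested. Over all tested rows, 4.98% were lower in PLZF+ cells. All 6 tested genes of 8 on a natural killer and innate lymphoid list were lower in PLZF+ cells, and the list summed to 3033 to 3701 normalized counts in PLZF- and 26.8 to 91.7 in PLZF+ libraries (Eomes and Klre1 at 0 in the latter). Of a plasmacytoid dendritic list, 4 of 5 tested genes were lower, with sums of 461 to 801 against 35.9 to 55.8 (Siglech and Klk1 at 0). The αβ T cell coreceptor genes Cd4, Cd8a and Cd8b1 summed to 20.7 to 27.0 in PLZF- and were at 0 in PLZF+ libraries. Macrophage genes summed to 20.2 to 28.1 against 0.558 to 1.24 (C1qa and Mrc1 at 0 in all), and fat and stromal genes to at most 2.48. Of a B and plasma cell list, Ms4a1 and Cd79a were at 0 in all 4 libraries, and the list summed to 1.69 to 7.32 against 29.6 to 33.4. The part of other cells in the receptor difference was not tested. The CD3, γ and δ rows had reads in every library, which does not show what part of the cells were γδ T cells.

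Genes on a list drawn up for rearrangement and transcription of these loci went in both directions. Whether each listed gene acts on these loci was not tested. Of 34 on this list, of recombination factors, transcription factors, receptors and kinases, 26 were tested. Among these 4 were higher, 5 were lower and 17 did not pass, where 2.55% of all tested rows were higher and 4.98% lower. The median log2 fold change was -0.26 against -0.03 over all tested rows. Gata3, a T cell transcription factor, fell by 2.82 ± 0.24 on the log2 scale (limma adjusted p = 2.2e-05). Blk, a Src-family kinase, rose by 3.13 ± 0.33 (adjusted p = 7.4e-05), and Sox13, a transcription factor of γδ T cells, by 2.75 ± 0.43 (0.0016). Jak1, a kinase of cytokine receptors such as that for IL-7, fell by 1.01 ± 0.18 (0.0037), and Lef1, a transcription factor of less mature T cells, by 2.33 ± 0.47 (0.0087). Also past the threshold were Maf, higher, and Id2 and Myb, lower. Without A7 or without B7 1 gene was higher, and 1 or 2 were lower when any 1 library was left out (1 without A6, 2 without A7, B6 or B7). Rag2, which is needed to cut the loci for rearrangement, was at 0 in all 4 libraries. Of the other recombination genes, Xrcc4, Prkdc and Dclre1c did not pass (limma adjusted p = 0.22, 0.21 and 0.75). Rag1, Dntt and Lig4 were under the minimum.

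Outside the loci, the tested rows whose pattern over the 4 libraries lay nearest to TCRD/TRDD2 were Pdcd1, Lat, Hk2, Bri3bp and Tspan31. Likeness was measured as the Euclidean distance of log2 values after centring each row, and was 0.084, 0.091, 0.11, 0.14 and 0.15. Pdcd1, which encodes PD-1, had 633 and 762 normalized counts in A6 and B6 and 2351 and 2312 in A7 and B7. Lat, an adaptor of the receptor's signal, had 91.1 and 116 against 356 and 325. With 4 libraries such likeness is common: 98 rows lay within 0.5, while the TCRG-V5/V6 and AK040028/TCRG rows lay at 0.77 and 0.71.

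The authors' deposited table of Cuffdiff tests called 2 of the 9 receptor rows it tested, TCRG-V5/V6 and TCRD/TRDD2, each with q = 0.00191, where it called 5.73% of all rows tested in either direction. In the authors' deposited table the AK040028/TCRG row (q = 0.527) and the TCRG-C row (q = 0.377) were not significant.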

How the data were processed

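RNA-seq tables of 2 PLZF+ and 2 PLZF- libraries were used, each library from a pool of 10 mice. The submitters' processing notes name mm10 and the tools HISAT 0.1.6, SAMtools 1.2, Cufflinks 1.2 and Cuffdiff; an annotation and a strand setting were not given in the sources used here. Of the deposited tables, the authors' Cuffnorm table holds normalized counts, a signal scaled between libraries and not raw counts. The authors also deposited FPKM values and a Cuffdiff table with a p-value and a q-value per row.

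In each library 1 read was worth a fixed number of normalized counts, found from the low values: 1.69 in A6, 1.22 in B6, 0.619 in A7 and 0.558 in B7. Divided by it, 92.4% to 94.2% of values came within 0.05 of a whole read. Estimated depth was 744570 and 981882 reads in A6 and B6 and 1837509 and 2035067 in A7 and B7, without the rRNA precursor Rn45s, which was listed at 0 in B7 and took 26.8% to 33.2% elsewhere; its 2 rows were left out. Exact intervals of shares are binomial (Clopper-Pearson), and those of ratios rest on read counts and depth; both cover counting error only.

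Rows with a mean of at least 10 were tested with limma 3.58.1 in R 4.3.3 (trend and robust moderation, two-sided) on log2(normalized count + 1), which understates changes of low rows, with Benjamini-Hochberg adjustment over 9501 rows and a threshold of 0.05. Tested on data simulated for this comparison over 9501 rows, the fit recovered 36% of simulated 2-fold changes and 98% of 4-fold changes, and called 6 of 9301 unchanged rows. Each library is a pool, so p-values measure the spread between pools. Starts in the tables count from 0, since 13813 single-gene rows matched a GENCODE start after adding 1 and 596 without; coordinates are given 1-based. Other steps used Python 3.11.15 with scipy 1.17.1, Biopython 1.88 and matplotlib 3.10.9.

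The receptor rows and gene lists were chosen with earlier results of these data known. Named are all receptor rows, the 4 CD3 genes, up to 6 genes of the locus control list by smallest p, the defining markers of other cells and the 5 rows nearest in pattern to the receptor row of the highest mean among those with a test; any other name was picked with its values in view. Some genes of the lists are not reported here by name. Alternatives were other pseudocounts, minimums and scalings, the FPKM table, other moderation, the column letter as a term and each library left out; voom and the sum of the 2 γ rows were chosen after seeing the data.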

Additional observations from a re-analysis of the deposited data

How the results depend on the processing

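No paired analysis was possible because the columns carry no replicate number of the labels; the column letter, a pairing that no label states, was tried as a term. A count test was not run because too few values came to whole reads. No receptor row tested in the main run changed direction in any alternative run, and the TCRG-V5/V6 row kept its call in all 14 (log2 fold change 2.44 to 2.63). Receptor rows under the minimum were not followed here. Without trend and robust moderation 1 receptor row was higher in place of 3, and on the FPKM scale TRDV5 was lower, 1 row in place of 0; the cause was not tested. The count of higher receptor rows was 2 to 3 when 1 library was left out, where the lone library is assumed to vary like the other subset, and it was 2 with the FPKM table.

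Over all rows, 242 were higher and 473 lower. Higher rows numbered 117 without a filter, 112 with the FPKM table, 31 without trend and robust moderation and 425 with the column letter as a term. Lower rows numbered 273, 243 and 181 under the first 3 of these. Leaving out 1 library gave 23 (without B7) to 247 (without B6) higher and 100 (without A6) to 266 (without A7) lower rows; without A7, 30 were higher, and without A6, 105. Scaling to equal totals moved the median log2 fold change of all rows from -0.03 to 0.08. Of the 4 CD3 genes, 2 passed without a filter, 2 with the FPKM values, 0 without trend and robust moderation and 0 to 3 with 1 library left out. Of the locus control list, 0 were higher and 1 lower without trend and robust moderation, 2 lower without a filter and 1 with the FPKM values; leaving out 1 library gave 1 to 4 higher and 1 to 2 lower. Depth limits the chosen receptor rows that name a V segment, the TCRG-V5/V6 row aside, which names a constant segment too. The rows so limited had at most 18 reads in a library.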

Other observations

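Rows named for the β chain of the αβ receptor, chosen after their values were seen, were abundant in these libraries, most of all in PLZF- cells. The 12 rows with a TCRB name summed to 3516 and 2157 normalized counts in A6 and B6 and to 1252 and 933 in A7 and B7. The γ rows summed to 1415 and 1795 in A6 and B6 and to 4757 and 5113 in A7 and B7. The TCRB sum was thus above the γ sum in both PLZF- libraries and below it in both PLZF+ libraries. Which cells the TCRB reads came from was not tested. Of 4 tested, 2 were lower in PLZF+ cells and 0 were higher, where 4.98% of all tested rows were lower and 2.55% higher. The most abundant of the 2 had 1346 and 1071 normalized counts in A6 and B6 and 382 and 290 in A7 and B7 (log2 fold change -1.85 ± 0.22, SE, limma adjusted p = 0.00021).

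Among the rows that share the α and δ interval without a receptor name of the kind chosen, 1 is named V DELTA 6. It had 13.5 and 17.1 normalized counts in A6 and B6 and 0.619 and 0 in A7 and B7. A row with more reads, which names TRAV14D-3-DV8, a variable segment of both chains, among many α segments, went the other way without passing. It had 67.5 and 35.4 normalized counts in A6 and B6 and 92.3 and 89.8 in A7 and B7 (log2 fold change 0.88 ± 0.45, SE, limma adjusted p = 0.30). The row of the α joining segments TRAJ59 and TRAJ60 had 18.6 and 6.10 against 40.9 and 44.6 (limma adjusted p = 0.15).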
